A study of Homo sapiens with 6 samples.

Results

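The integrins, cadherins and claudins are adhesion receptors of the cell surface, described here in A549, an epithelial cell line from a human lung carcinoma. Members were protein-coding genes of the deposited count table whose symbols name an integrin alpha chain (ITGA), an integrin beta chain (ITGB1 to ITGB8), a numbered cadherin (CDH) or a numbered claudin (CLDN). The rule gave 68 of 29122 genes: 17 integrin alpha chains, 8 integrin beta chains, 23 cadherins and 20 claudins. Polyadenylated RNA was sequenced in 3 control and 3 BCLAF1-depleted libraries. Cells of both groups carried a stably integrated lentiviral short hairpin RNA. In the controls it was aimed at firefly luciferase, which has no target in human cells, and in the depleted cells at BCLAF1, a nuclear factor with roles in RNA splicing and gene expression. The labels give neither the number of hairpins nor whether the replicates were separate cultures, so the p-values cover the spread among these 6 libraries alone, part or all of which may be technical.

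Integrins are pairs of an alpha and a beta chain that bind the extracellular matrix and connect it, through talins and kindlins, to actin. Cadherins hold neighbouring cells together by calcium-dependent contacts and are tied to actin by catenins. Claudins form the strands of the tight junction and set which ions pass between epithelial cells. In carcinoma lines a low E-cadherin (CDH1) with a high N-cadherin (CDH2) is a familiar mark of a mesenchymal state.

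Levels between libraries are CPM, counts scaled to a common library size with TMM (edgeR's correction for library make-up). Levels between genes are the deposited FPKM, which divide by gene length and do not carry that scaling. Each log2 fold change sets the depleted group over the control group and is given ± SE, with the p-value of edgeR's quasi-likelihood test adjusted by Benjamini-Hochberg over 15907 tested genes. A gene rose or fell where this was under 0.05. Libraries held between 33409158 and 43928927 counts. A floor of 3 counts, for counting error, stands at 0.0624 to 0.0925 CPM. BCLAF1 was at 211, 199 and 203 CPM in control replicates 1 to 3 and at 39.0, 35.7 and 53.1 CPM in depleted replicates 1 to 3, a log2 fold change of -2.26 ± 0.16 (adjusted p = 2.31e-05 by edgeR). Across tested genes depleted replicate 1 lay nearer the controls (19.4 on the first principal component) than replicates 2 and 3 did (54.2 and 53.4, with controls at -43.6 to -40.9). The epithelial keratins KRT8, KRT18, KRT7 and KRT19 with EPCAM summed to 32544 to 34164 CPM in controls and 34446 to 41903 CPM after depletion, whereas 7 alveolar markers, the surfactant genes SFTPB and SFTPC among them, summed to at most 1.23 CPM in any library. Most of the epithelial sum was KRT8 and KRT18, at means of 16030 and 15146 CPM in controls. Neither passed the threshold, nor did KRT7 or EPCAM, whose mean went from 42.5 to 36.5 CPM. KRT19 rose at a low level, from a mean of 0.280 to 0.616 CPM (adjusted p = 0.0495 by edgeR).

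The promoters of CLDN1, CLDN2 and ITGB6 are shown because CLDN1 rose, CLDN2 fell, and ITGB6 had the largest fall among integrin beta chains with over 3 counts in every library. They come from RefSeq on GRCh38.p14, which had a promoter entry for 43 of the 68 members. Each is read 5′ to 3′ on the gene's strand, lies within the 250 bases before a RefSeq start, and stops short of any 5′ untranslated region in GENCODE 29. They lie at chr3:190322476-190322696 (minus strand), chrX:106918110-106918359 (plus strand, before the inner of 2 CLDN2 starts in the table) and chr2:160200314-160200522 (minus strand). Capitals mark the GC box GGGCGG and the E-box CAGGTG, the kind bound by SNAI and ZEB repressors, in either orientation.
CLDN1: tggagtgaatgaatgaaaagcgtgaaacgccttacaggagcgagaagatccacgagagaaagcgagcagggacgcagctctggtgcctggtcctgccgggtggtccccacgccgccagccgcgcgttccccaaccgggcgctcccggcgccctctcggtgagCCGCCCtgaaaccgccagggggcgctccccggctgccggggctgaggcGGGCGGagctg
CLDN2: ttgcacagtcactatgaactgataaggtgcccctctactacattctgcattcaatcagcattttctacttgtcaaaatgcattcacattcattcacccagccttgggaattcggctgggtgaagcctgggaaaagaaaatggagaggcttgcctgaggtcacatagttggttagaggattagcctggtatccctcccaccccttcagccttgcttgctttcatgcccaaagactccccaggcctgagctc
ITGB6: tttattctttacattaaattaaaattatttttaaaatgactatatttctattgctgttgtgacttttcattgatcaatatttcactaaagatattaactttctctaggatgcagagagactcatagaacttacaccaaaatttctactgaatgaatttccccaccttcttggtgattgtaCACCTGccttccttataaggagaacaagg
CLDN1 had 2 GC boxes, 88 and 40 bases before its start, and ITGB6 had 1 E-box, 70 bases before its start. The CLDN2 window shown held neither, nor TGANTCA (the AP-1 site) or TATAAA, while the window of the outer CLDN2 start held TGANTCA. Both strands were searched for these 4 motifs, none of which contains another, over the whole 250 bases before each start. Of all 27305 genes in the table, 20.6% had an E-box, 46.2% a GC box and 8.06% TGANTCA, while 3563 genes had TATAAA. Among members the E-box was found for 4 of 8 that fell and have an entry, 0 of 5 that rose and 2 of 13 that did not pass the threshold. GC boxes were found for 4 of 8, 4 of 5 and 8 of 13. A match is a run of letters and shows no binding.

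Of the 68 members, 42 had enough counts to be tested, and 6 rose and 13 fell, or 45.2% where 35.8% of all tested genes were called. Of all tested genes, 17.8% rose and 18.0% fell. Scaled by library totals alone, 4 members rose and 14 fell, where 31.1% of all tested genes were called (8.07% higher and 23.0% lower). At least 2-fold changes were found for 4 members that rose and 9 that fell, against 6.05% and 5.14% of all tested genes. The median log2 fold change was -0.07 for tested members and 0.02 for all tested genes. The control and depleted libraries did not overlap for 23 of the 42 tested members, the 19 called ones among them, and for 51.9% of all tested genes. The 26 members not tested, 5 alpha chains, 1 beta chain, 9 cadherins and 11 claudins, had at most 20 counts in any library. A member can pass the filter through 1 group alone, so these shares describe the genes that could be measured. Because the RNA comes from whole cultures, fewer cells that express a gene and less RNA per cell cannot be told apart.

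**Figure D1:**
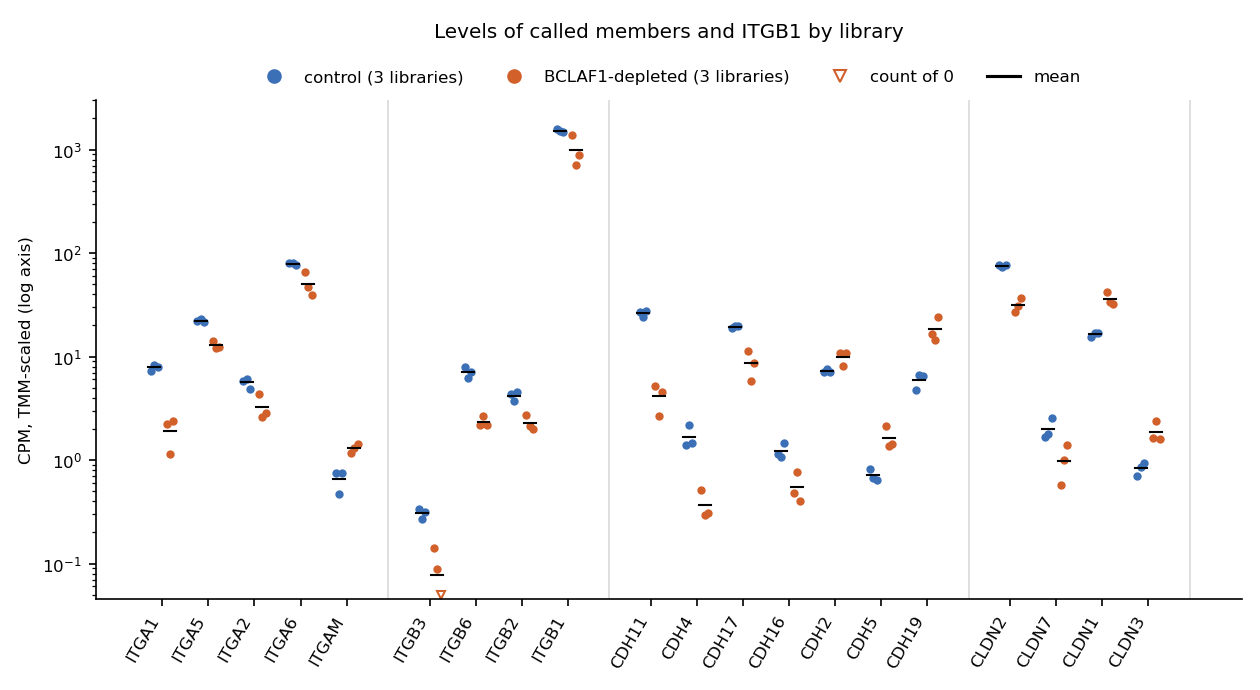
CPM scaled by TMM (log axis) of the 19 called members and ITGB1 in each library, with 1 point per library, 3 for each group, bars for the group means and an open triangle for a count of 0. The groups do not overlap for any gene shown, with 13 called members lower and 6 higher after BCLAF1 depletion.

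Per length, on the deposited FPKM (mean ± SD, n = 3), the beta chains of control cells were led by ITGB1, the partner of most alpha chains, at 373 ± 9.07. ITGB4, the hemidesmosome chain that pairs with ITGA6, followed at 48.6 ± 2.41 FPKM, and ITGB5, a partner of ITGAV, at 39.5 ± 0.866 FPKM. Alpha chains were led by ITGA3, a laminin receptor chain, at 76.5 ± 1.85 FPKM, then by ITGA6, also for laminin, at 13.1 ± 0.287 and ITGAV, for vitronectin and other ligands, at 7.48 ± 0.234 FPKM. ITGA3 alone was 70.9% of all alpha chain FPKM. ITGA5 (4.84 ± 0.147 FPKM) and ITGAE (4.25 ± 0.681 FPKM) came next and differed by less than the SD of ITGAE.

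CDH1 was the most abundant cadherin of control cells at 14.5 ± 0.924 FPKM, before CDH17, an intestinal-type cadherin, at 4.92 ± 0.114 and CDH11, a cadherin of mesenchymal cells, at 3.59 ± 0.276 FPKM. CDH24 (1.96 ± 0.244 FPKM) and CDH2 (1.58 ± 0.0577 FPKM) came after them. CLDN2, which forms cation pores, led the claudins at 21.4 ± 0.810 FPKM, before CLDN1, a sealing claudin, at 4.53 ± 0.246 and CLDN12 at 3.24 ± 0.145 FPKM. In these orders each of the leading 3 members of a family lay apart from the next by more than their SDs.

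**Figure D2:**
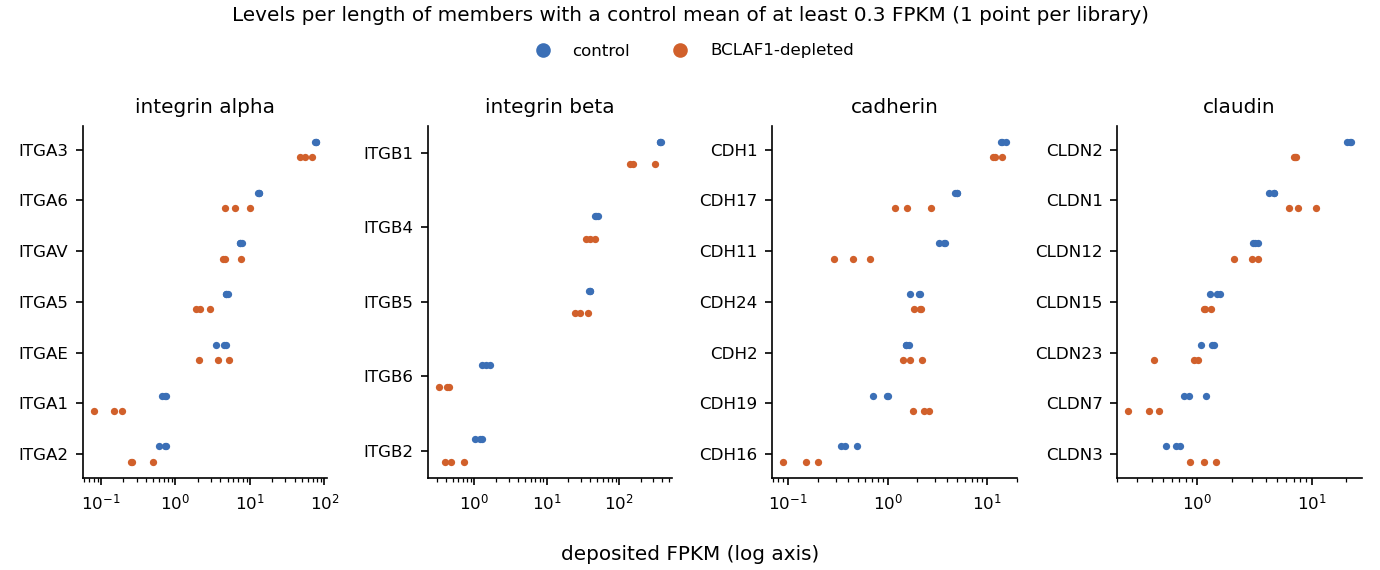
Deposited FPKM (log axis) of the more abundant members of each family, 1 point per library, ordered by control mean. ITGB1 (373 FPKM), ITGA3 (76.5), CDH1 (14.5) and CLDN2 (21.4) lead their families in control cells, whereas after depletion CLDN1 is above CLDN2 in replicates 1 and 2.

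Of all tested genes, 18.0% fell and 17.8% rose. Of the 12 tested alpha chains, 4 fell, 1 rose and 7 did not pass the threshold (median log2 fold change -0.16). Those that fell were the collagen receptor chains ITGA1 and ITGA2, the fibronectin receptor chain ITGA5 and the laminin receptor chain ITGA6. ITGA1 (chromosome 5, 52787896 to 52959210, plus strand, GRCh38) was at 7.31, 8.27 and 7.92 CPM in controls and at 2.25, 1.14 and 2.37 CPM after depletion. Every depleted library lay far below the lowest control, and the log2 fold change was -2.03 ± 0.24 (adjusted p = 0.000371 by edgeR), a 4.07-fold fall. Exons of ITGA1 share 475 bases with PELO and 571 bases with a processed pseudogene on the same strand, so reads there could belong to either.

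ITGA5 (chromosome 12, 54395261 to 54419460, minus strand) was at 21.9, 23.2 and 21.7 CPM in controls and 14.1, 12.0 and 12.3 CPM after depletion. The depleted libraries lay close together and well under the controls, with a log2 fold change of -0.80 ± 0.12 (adjusted p = 0.00145 by edgeR). ITGA6 (chromosome 2, 172427354 to 172506282, plus strand) was at 79.8, 80.7 and 76.4 CPM in controls and 65.1, 46.5 and 39.4 CPM after depletion. Depleted replicate 1 was nearest the controls, and the log2 fold change was -0.65 ± 0.17 (adjusted p = 0.0162 by edgeR). ITGA2, the next gene along chromosome 5 from ITGA1 among the members (52989326 to 53094779, plus strand), was at 5.86, 6.09 and 4.89 CPM and at 4.39, 2.58 and 2.84 CPM. Here too replicate 1 was the highest depleted library, and the log2 fold change was -0.78 ± 0.22 (adjusted p = 0.0198 by edgeR). The ITGA2 call is lost without control replicate 1 or 2 or depleted replicate 2 or 3 (adjusted p from 0.0581 to 0.0749), and that of ITGA6 without control replicate 1 or 2 or depleted replicate 2 (0.0545 to 0.0634).

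ITGA3 and ITGAV did not pass the threshold. ITGA3 was at 392, 396 and 374 CPM in controls and 373, 340 and 336 CPM after depletion, a log2 fold change of -0.15 ± 0.13 (adjusted p = 0.387 by edgeR). ITGAV was at 55.1, 55.0 and 57.4 CPM against 59.7, 42.7 and 45.2 CPM, with depleted replicate 1 above every control and replicates 2 and 3 below them (-0.18 ± 0.14, adjusted p = 0.334 by edgeR). The ratio of ITGA6 to ITGA3 FPKM was 0.170, 0.171 and 0.171 in controls and 0.146, 0.114 and 0.0980 after depletion. These ratios do not overlap between the groups.

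ITGAM, the alpha chain of the leukocyte receptor Mac-1, was the alpha chain that rose, at a low level. It was at 0.747, 0.473 and 0.748 CPM in controls and 1.17, 1.32 and 1.42 CPM after depletion (log2 fold change 0.98 ± 0.28, adjusted p = 0.0207 by edgeR). This call is lost without control replicate 1 or 2 or depleted replicate 2 (adjusted p from 0.0526 to 0.0949) and under library totals alone (0.0708). Its beta chain partner ITGB2 fell, from 4.30, 3.70 and 4.53 CPM to 2.74, 2.14 and 1.97 CPM (-0.87 ± 0.19, adjusted p = 0.00733 by edgeR). The chains of this receptor therefore moved in opposite directions, with no overlap between the groups for either. ITGAL and ITGAX, the other tested alpha partners of ITGB2, had adjusted p-values of 0.161 and 0.112 (edgeR) and overlapping groups. Of 8 leukocyte markers 7 were in the table, with summed levels of 0.812 to 2.02 CPM in controls and 1.34 to 2.62 CPM after depletion. The pan-leukocyte gene PTPRC was at mean levels of 0.0226 and 0.0486 CPM, under the floor of 3 counts.

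Of the 7 tested beta chains, 3 fell, none rose and 4 did not pass the threshold (median log2 fold change -0.62). The shares of all tested genes were 18.0% lower and 17.8% higher. ITGB6 (chromosome 2, 160099666 to 160200313, minus strand), the epithelial partner of ITGAV that binds latent TGF-beta, was at 7.90, 6.13 and 7.03 CPM in controls and 2.17, 2.64 and 2.19 CPM after depletion. The depleted libraries lay close together and far below the controls, and the log2 fold change was -1.59 ± 0.17 (adjusted p = 0.000233 by edgeR), a 3.01-fold fall. ITGB3, another ITGAV partner, had 15, 12 and 15 counts in controls and 5, 3 and 0 counts after depletion. Its log2 fold change of -1.93 ± 0.64 (adjusted p = 0.0382 by edgeR) rests on these few counts, and the call is lost when any 1 library other than depleted replicate 1 is left out (adjusted p from 0.0649 to 0.109). Exons of ITGB3 share 2266 bases, and those of ITGB6 966 bases, with another annotated gene on the same strand.

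ITGB1 (chromosome 10, 32900319 to 33005792, minus strand) was at 1566, 1513 and 1479 CPM in controls and 1374, 715 and 884 CPM after depletion. All depleted libraries lay below all controls, but replicate 1 differed widely from replicates 2 and 3, and the log2 fold change of -0.62 ± 0.23 missed the threshold (adjusted p = 0.055 by edgeR). Without depleted replicate 1 it was -0.95 (adjusted p = 0.000635). ITGB4 was at 330, 301 and 304 CPM in controls and 319, 312 and 315 CPM after depletion, a log2 fold change of 0.02 ± 0.12 (adjusted p = 0.92 by edgeR). ITGB5 was at 183, 176 and 178 CPM and at 181, 163 and 154 CPM (-0.11 ± 0.12, adjusted p = 0.509 by edgeR).

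In all, 7 of 19 tested integrins fell (36.8%) and 1 rose (5.26%), beside 18.0% and 17.8% of all tested genes. Exon length is the total of a gene's annotated exon bases, with overlapping exons counted once, and its median for these integrins was 6657 bases. In the fourth of 5 equal classes by exon length, which holds that value, 25.3% of all genes fell and 12.5% rose. With a trend on length and GC content removed, 6 integrins fell and 1 rose, where 15.9% of all tested genes fell and 18.1% rose. By deposited FPKM, ITGB1 was 80.2%, 80.8% and 80.2% of all beta chain RNA in controls and 78.8%, 67.1% and 72.1% after depletion. The share of ITGB4 was 10.7%, 10.2% and 10.5% in controls and 11.6%, 18.6% and 16.3% after depletion, so the beta chain make-up shifted least in depleted replicate 1.

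**Figure D3:**
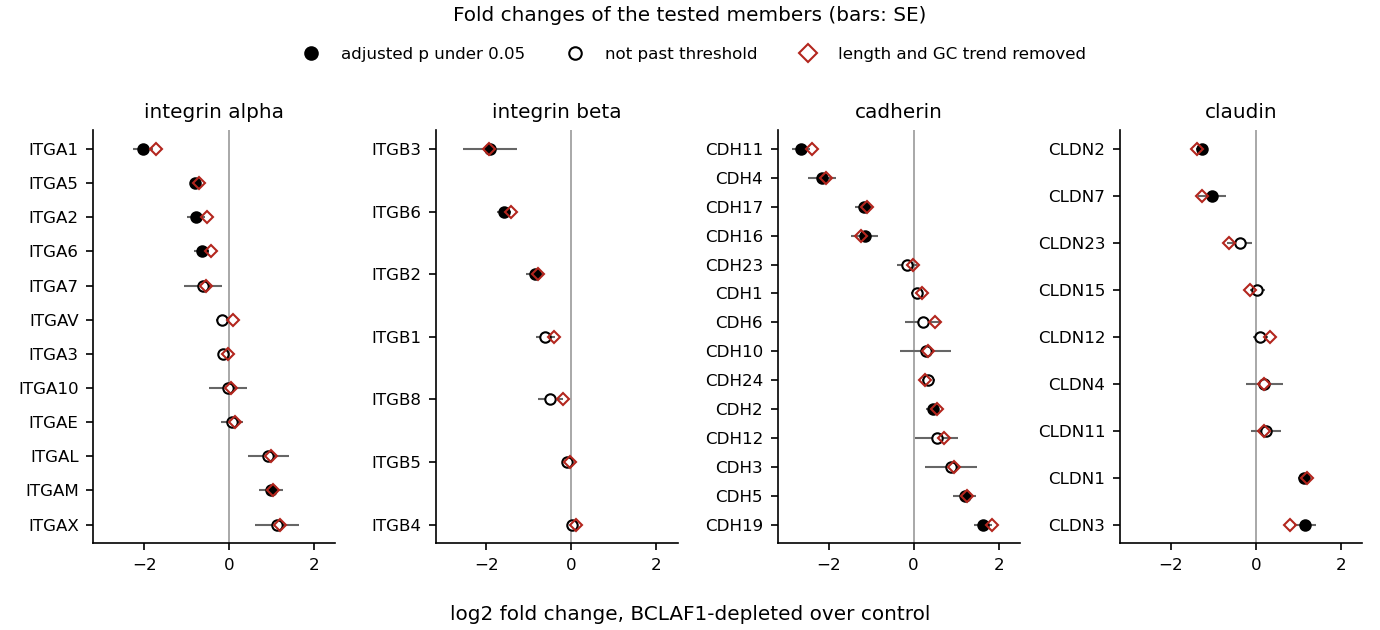
Log2 fold changes (BCLAF1-depleted over control, edgeR, bars for SE) of the 42 tested members by family. Among integrins 7 fell and ITGAM rose, cadherins changed in both directions from -2.65 (CDH11) to 1.63 (CDH19), and CLDN2 (-1.26) and CLDN1 (1.14) lie on opposite sides of 0.

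Of the 14 tested cadherins, 4 fell and 3 rose (median log2 fold change 0.25), beside 18.0% and 17.8% of all tested genes. CDH11 (chromosome 16, 64943753 to 65126112, minus strand) had the largest fall of all tested members. It was at 27.1, 23.9 and 27.3 CPM in controls and 5.25, 2.64 and 4.56 CPM after depletion, with a wide gap between the groups. The log2 fold change was -2.65 ± 0.22 (adjusted p = 5.09e-05 by edgeR), a 6.29-fold fall, and 254 bases of its exons are shared with another annotated locus on the same strand. The CDH11 share of cadherin FPKM was 11.6% to 13.2% in controls and 1.33% to 2.84% after depletion.

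CDH17 (chromosome 8, 94127171 to 94217303, minus strand) was at 18.9, 19.6 and 19.5 CPM in controls and 11.4, 5.84 and 8.63 CPM after depletion. The controls were nearly equal and the depleted libraries spread below them, with a log2 fold change of -1.17 ± 0.21 (adjusted p = 0.00294 by edgeR). CDH4, the retinal cadherin, was lower still at 1.40, 2.16 and 1.46 CPM in controls and 0.513, 0.293 and 0.308 CPM after depletion (-2.16 ± 0.33, adjusted p = 0.00141 by edgeR). CDH16, the kidney-type cadherin, was at 1.13, 1.06 and 1.48 CPM and at 0.485, 0.762 and 0.401 CPM (-1.15 ± 0.31, adjusted p = 0.0187 by edgeR). For CDH4 and CDH16 every depleted library lay below every control. Without control replicate 3 the CDH16 call is lost (adjusted p = 0.0816).

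CDH19 (chromosome 18, 66501083 to 66604138, minus strand), known from Schwann cell precursors, had the largest rise of all tested members. It was at 4.73, 6.58 and 6.49 CPM in controls and 16.5, 14.5 and 24.2 CPM after depletion. All depleted libraries were well above the controls, replicate 3 the highest, with a log2 fold change of 1.63 ± 0.21 (adjusted p = 0.000596 by edgeR), a 3.10-fold rise. CDH5, the endothelial VE-cadherin, rose at a low level, from 0.815, 0.676 and 0.644 CPM to 2.11, 1.38 and 1.42 CPM (1.20 ± 0.27, adjusted p = 0.00822 by edgeR). The 7 endothelial markers summed to 1.13 to 1.70 CPM in controls and 0.969 to 1.26 CPM after depletion. PECAM1, the 1 of them with enough counts to test, fell from a mean of 1.08 to 0.581 CPM (adjusted p = 0.0359 by edgeR).

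CDH1 stayed above CDH2 per length in every library. CDH1 (chromosome 16, 68737225 to 68835548, plus strand) was at 80.2, 73.9 and 70.1 CPM in controls and 65.6, 90.1 and 81.7 CPM after depletion, with overlapping groups and a log2 fold change of 0.08 ± 0.14 (adjusted p = 0.671 by edgeR). With the length and GC trend removed and depleted replicate 1 left out, CDH1 was at 0.34 and past the threshold (adjusted p = 0.0282), and under library totals alone it was at -0.15. CDH2 (chromosome 18, 27950966 to 28177446, minus strand) was at 7.15, 7.64 and 7.11 CPM in controls and 10.9, 8.18 and 10.8 CPM after depletion. Its groups did not overlap and it rose by a small margin (0.45 ± 0.15, adjusted p = 0.0423 by edgeR). That call is lost when any 1 library other than depleted replicate 2 is left out, with adjusted p from 0.0662 to 0.147, and under library totals alone (adjusted p = 0.416). The ratio of CDH1 to CDH2 FPKM was 10.01, 8.65 and 8.84 in controls and 5.40, 9.81 and 6.80 after depletion, so the groups overlapped. The 7 fibroblast markers summed to 22.7 to 25.4 CPM in controls and 14.8 to 16.8 CPM after depletion, and COL1A1 was the 1 of 5 tested that changed (a fall). Most of the sum was COL1A1, at a mean of 17.7 CPM in controls and 9.89 CPM after depletion, while COL3A1 had at most 12 counts and THY1 at most 3 in any library. The cultures were of 1 cell line, A549, and any relation of these marker levels to the cadherin values was not tested.

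Among the 9 tested claudins, 2 fell and 2 rose (median log2 fold change 0.11), beside 18.0% and 17.8% of all tested genes. The most abundant claudin of control cells, CLDN2, was among those that fell. CLDN2 (chromosome X, 106900164 to 106930861, plus strand) was at 76.3, 72.6 and 77.4 CPM in controls and 27.1, 30.8 and 36.4 CPM after depletion. The groups were far apart, with depleted replicate 3 nearest the controls, and the log2 fold change was -1.26 ± 0.13 (adjusted p = 0.000183 by edgeR), a 2.40-fold fall. CLDN1 (chromosome 3, 190305701 to 190322475, minus strand) was at 15.4, 16.9 and 16.8 CPM in controls and 42.0, 33.6 and 32.1 CPM after depletion. It rose 2.20-fold, with all depleted libraries far above the controls (log2 fold change 1.14 ± 0.13, adjusted p = 0.000375 by edgeR).

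The ratio of CLDN2 to CLDN1 FPKM was 5.07, 4.39 and 4.70 in controls (4.72 ± 0.337) and 0.659, 0.934 and 1.16 after depletion (0.917 ± 0.250). CLDN2 was 61.7% to 64.9% of all claudin FPKM in controls and 28.3% to 35.7% after depletion, while CLDN1 was 12.8% to 14.0% and then 30.8% to 42.9%. Exons of CLDN2 share 341 bases with RIPPLY1 on the opposite strand, and exons of ITGA6, ITGB2, CDH1 and CDH2 overlap annotated antisense genes. Whether counting used strand was not given in the sources used here, so reads of such pairs may not be told apart.

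**Figure D4:**
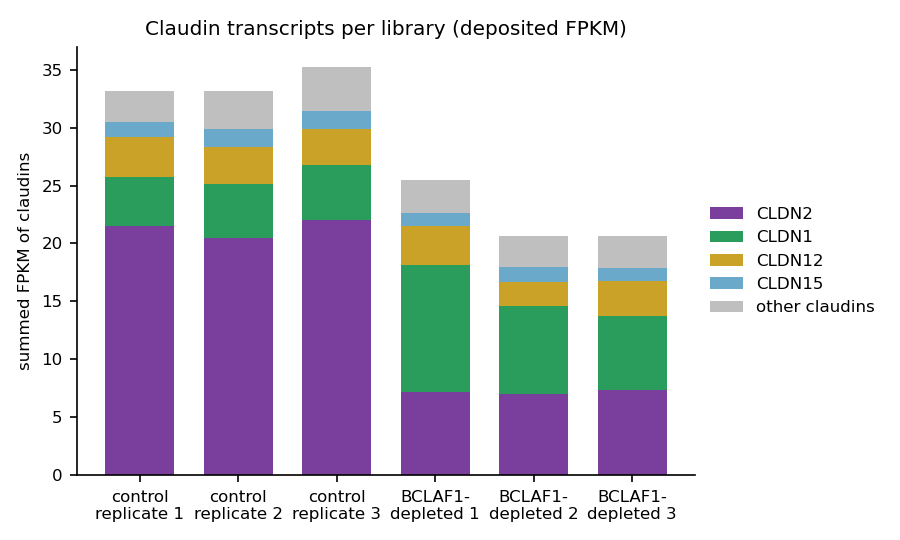
Summed deposited FPKM of the claudins in each library, stacked by gene. CLDN2 makes up 61.7% to 64.9% of the bar in controls and 28.3% to 35.7% after depletion. The whole bar is 33.2 to 35.2 FPKM in controls and 20.7 to 25.4 FPKM after depletion. FPKM do not carry the TMM scaling, and on log2(FPKM + 1) the median log2 fold change of all genes was -0.21. Bar heights are therefore not a measure of change between the groups.

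The other claudins that changed were low. CLDN3 was at 0.701, 0.857 and 0.936 CPM in controls and 1.62, 2.38 and 1.60 CPM after depletion, a rise of 1.16 ± 0.26 on the log2 scale (adjusted p = 0.00768 by edgeR). CLDN7 was at 1.65, 1.80 and 2.56 CPM and at 0.570, 0.997 and 1.39 CPM (-1.03 ± 0.32, adjusted p = 0.0304 by edgeR). CLDN7 shares 269 exon bases with another gene on the same strand. It lies close under its controls in depleted replicate 3, and the call is lost without control replicate 2 (adjusted p = 0.0609), control replicate 3 (0.127) or depleted replicate 2 (0.0845). CLDN12, which like CLDN2 has been tied to paracellular calcium transport, was at 12.6, 12.0 and 11.4 CPM and at 13.5, 9.59 and 15.7 CPM, with overlapping groups (0.11 ± 0.17, adjusted p = 0.658 by edgeR).

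The 23 tested members that did not pass the threshold had log2 fold changes of -0.62 to 1.12 (alpha chains), -0.62 to 0.02 (beta chains), -0.16 to 0.88 (cadherins) and -0.38 to 0.24 (claudins). Beside those named above they were ITGA7, ITGA10, ITGB8, CDH3, CDH6, CDH10, CDH12, CDH23, CLDN4, CLDN11, CLDN15 and CLDN23. ITGA3, ITGB1, ITGB8 and CDH24 were those among the 23 whose groups did not overlap. ITGB8, a TGF-beta-activating partner of ITGAV, was at 1.63, 1.60 and 1.43 CPM in controls and 1.40, 1.26 and 0.616 CPM after depletion (adjusted p = 0.201 by edgeR).

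The members not tested were ITGA4, ITGA8, ITGA9, ITGA11, ITGAD and ITGB7, then CDH7, CDH8, CDH9, CDH13, CDH15, CDH18, CDH20, CDH22 and CDH26, and then CLDN5, CLDN6, CLDN8, CLDN9, CLDN10, CLDN14, CLDN16, CLDN19, CLDN20, CLDN22 and CLDN24. CLDN5, the endothelial claudin, had at most 1 count in any library, and the leukocyte chain ITGA4 at most 2. CLDN16 had 9, 8 and 8 counts in controls and 1, 2 and 3 counts after depletion, and with CDH7 and CDH26 was among the untested members whose groups did not overlap in CPM.

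Depleted replicate 1 had the smallest change for 8 of the 13 members that fell, replicate 2 for 2 and replicate 3 for 3. The median log2 differences from the control mean were -1.33, -1.29 and -1.12 in replicates 1 to 3, an order that differed between families. For alpha chains that fell these medians were -0.51, -1.01 and -0.99, and for beta chains -1.11, -1.41 and -1.38. For cadherins they were -1.52, -2.12 and -2.03, and for the 2 claudins -1.65, -1.15 and -0.79. ITGB3, with a count of 0 in replicate 3, has no value in the replicate 3 medians. For the 6 members that rose the medians were 1.16, 1.02 and 0.98, and the smallest change was in replicate 1 for 1, replicate 2 for 3 and replicate 3 for 2. Without replicate 1, 6 members rose and 15 fell, and 48.8% of all tested genes were called (23.0% higher and 25.8% lower). Without depleted replicate 2, 25.0% of all tested genes were called, and leaving out a control library gave 18.1% to 19.7%. Without depleted replicate 3 the share was 30.8%.

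Exon length went with fold change across all genes, from a median log2 fold change of 0.35 in the shortest of 5 equal length classes to -0.19 in the longest. The tested members had a large total exon length, with a median of 6278 bases against 4525 bases for all tested genes. Of the 42, 19 and 8 were in the fourth and the fifth of these classes. With a smooth trend on length and GC content removed per library, 6 members rose and 12 fell, where 34.0% of all tested genes were called (18.1% higher and 15.9% lower). The median was then 0.01 for members and 0.03 for all genes. CDH11 was then at -2.39, ITGA1 at -1.74, ITGB6 at -1.42, CLDN2 at -1.37, CDH19 at 1.84 and CLDN1 at 1.21, all still past the threshold. The call lost was that of ITGA2 (-0.52, adjusted p = 0.0507). ITGAV turned to 0.083, and ITGB1 was at -0.41 (adjusted p = 0.111). Under other settings the share of all genes called was 22.2% with no low-count filter, 33.5% by the Wald test, 37.8% with a replicate block, 35.6% with the trend removed and the block, 44.1% with the trend removed and without depleted replicate 1, 38.3% on log2(FPKM + 1), 36.5% on log2(FPKM + 0.1) and 9.11% on unfiltered log2(FPKM + 1).

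**Figure D5:**
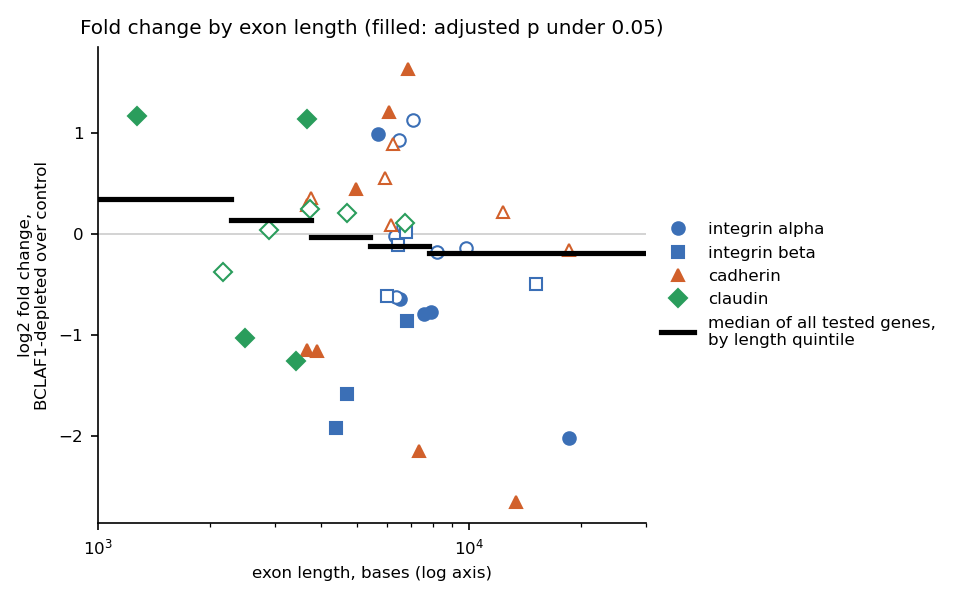
Log2 fold change (BCLAF1-depleted over control) of the tested members against exon length in bases (log axis), by family, filled where the adjusted p is under 0.05, with the median of all genes in 5 length classes. The all-gene median falls from 0.35 to -0.19, while CDH11 (-2.65) and CDH19 (1.63) lie far from it on either side.

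Genes that anchor or bind these receptors were counted in the same fit, where 17.8% of all tested genes rose and 18.0% fell. In the longest of the 5 length classes, 10.3% of all genes rose and 30.1% fell. Of 5 tested genes of the catenin list, whose median exon length was 8798 bases, 3 fell and none rose, as was also counted with the length and GC trend removed. CTNNB1 (log2 fold change -0.12 ± 0.11, adjusted p = 0.449 by edgeR) and JUP (-0.30 ± 0.12, adjusted p = 0.0636) did not pass the threshold. CTNNA1 (alpha-catenin) went from 474 ± 8.71 to 315 ± 53.7 CPM (log2 fold change -0.59 ± 0.15, adjusted p = 0.015 by edgeR). CTNND1 (p120-catenin, which holds cadherins at the membrane) went from 87.9 ± 3.41 to 51.6 ± 15.5 CPM (-0.77 ± 0.19, adjusted p = 0.0137), and CTNNAL1 fell by 0.43 on the log2 scale (adjusted p = 0.0233). The calls of CTNNA1 and CTNNAL1 are lost when control replicate 1 or 2 is left out (CTNNA1 also without 3), and that of CTNND1 without control replicate 3, with adjusted p from 0.0511 to 0.121.

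Desmosomes join the keratin networks of neighbouring cells through cadherins of their own. Of 6 tested desmosome genes (median exon length 8284 bases) 4 fell and 1 rose, beside 18.0% and 17.8% of all genes. PKP3 was the gene that rose, from 65.1 ± 3.82 to 96.4 ± 19.4 CPM (0.57 ± 0.15, adjusted p = 0.0171 by edgeR). With the length and GC trend removed 3 fell, since DSC2 (desmocollin-2) went from -0.47 (adjusted p = 0.049) to -0.18 (0.324). DSP (desmoplakin) went from 481 ± 15.6 to 239.8 ± 54.9 CPM (-1.01 ± 0.18, adjusted p = 0.00303 by edgeR) and DSG2 (desmoglein-2) from 130.2 ± 7.39 to 63.6 ± 19.5 CPM (-1.04 ± 0.20, adjusted p = 0.00437). PKP2 (plakophilin-2) fell by 0.72 (adjusted p = 0.0258), a call lost when any 1 library other than depleted replicate 1 is left out (adjusted p from 0.0677 to 0.0877).

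Nectins are calcium-independent adhesion molecules linked to actin by afadin, and 2 of 6 tested genes of this list fell and 1 rose (3 and 1 with the length and GC trend removed). The shares of all tested genes were 18.0% lower and 17.8% higher. PVRL3 (nectin-3) fell by 0.95 ± 0.16 (adjusted p = 0.00217 by edgeR), MLLT4 (afadin) fell by 0.64 ± 0.12 (adjusted p = 0.00392), and PVRL4 (nectin-4) rose by 0.69 ± 0.21 (adjusted p = 0.0296). The PVRL4 call is lost when any 1 library other than depleted replicate 1 is left out (adjusted p from 0.0516 to 0.121), under library totals alone (0.44, adjusted p = 0.134) and on log2(FPKM + 1) (0.21, adjusted p = 0.181). Of 16 tested partners of claudins at the tight junction, 4 fell and 1 rose (4 and 2 with the trend removed). The 25.0% that fell stands beside 18.0% of all tested genes. It also stands beside 25.3% of those in the fourth length class, which holds this list's median exon length of 6564.5 bases. The scaffold genes MPDZ (-1.17 ± 0.19, adjusted p = 0.00221 by edgeR) and INADL (-0.84 ± 0.15, adjusted p = 0.00329) fell, whereas the polarity gene PARD3 rose from 233 ± 8.84 to 418 ± 127 CPM (0.84 ± 0.20, adjusted p = 0.0105). The PARD3 call is lost without control replicate 3 (adjusted p = 0.0528).

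Of 26 tested integrin adaptors, which link beta chain tails to actin and signalling, 9 fell and none rose. The 34.6% that fell stands beside 18.0% of all tested genes, 25.3% of those in the fourth length class and 30.1% of those in the longest. The median exon length of the adaptors was 7932 bases, and the longest class starts at 7814 bases, so the adaptors are spread over more than 1 class. TNS1 (tensin-1) fell most, from 10.8 ± 0.812 to 2.28 ± 0.336 CPM (-2.25 ± 0.16, adjusted p = 2.34e-05 by edgeR). FERMT1, the epithelial kindlin, fell by 1.35 ± 0.22 (adjusted p = 0.00184) and DAB2, an endocytic adaptor, by 1.21 ± 0.18 (adjusted p = 0.0013). With the length and GC trend removed, 8 adaptors fell and 2 rose, where 15.9% of all tested genes fell and 18.1% rose.

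Of 25 tested integrin ligands, 6 rose and 6 fell, or 24.0% each way beside 17.8% and 18.0% of all genes, and 8 rose and 5 fell with the length and GC trend removed. The ligands named below encode basement membrane chains. COL4A1 and COL4A2, the chains of type IV collagen bound by ITGA1 and ITGA2 receptors, went from 85.6 ± 4.99 to 13.2 ± 2.75 CPM (-2.69 ± 0.16, adjusted p = 8.45e-06 by edgeR) and from 258 ± 8.10 to 61.8 ± 5.83 CPM (-2.06 ± 0.13, adjusted p = 1.05e-05). LAMB3, a chain of laminin-332 bound by ITGA3 and ITGA6 receptors, went from 108 ± 1.87 to 316 ± 39.5 CPM (1.55 ± 0.14, adjusted p = 7.03e-05). Among 7 tested transcription factors of epithelial and mesenchymal states, 2 rose and none fell. With the length and GC trend removed 2 rose and 1 fell, the latter SNAI1 (-0.74, adjusted p = 0.0253). With the trend left in, SNAI1 was at -0.40 ± 0.26 (adjusted p = 0.241 by edgeR) and its groups overlapped. Those that rose were TWIST1, which favours a mesenchymal state, from 4.31 ± 0.377 to 7.72 ± 0.227 CPM (adjusted p = 0.00254 by edgeR), and OVOL2, which favours an epithelial state, from 1.58 ± 0.131 to 3.12 ± 0.435 CPM (adjusted p = 0.00504).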

How the data were processed

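Polyadenylated RNA of 3 control and 3 BCLAF1-depleted A549 libraries was sequenced from directional libraries, per the labels' protocols. The authors deposited whole-number counts per gene, not normalized, and FPKM, which are normalized for length and depth, with 1 column per library and no pooling. TopHat2, bcl2fastq and edgeR are named with build GRCh38, per the submitters' processing notes. What each tool did, the gene annotation and the use of strand were not given in the sources used here. Sample titles write "si" and source names "A649" where the protocols describe hairpins and A549, and the protocols were followed.

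The count test was edgeR 4.0.16 under R 4.3.3 (glmQLFit and glmQLFTest, group as the only term, TMM scaling), after filterByExpr with a minimum count of 10 and total of 15. SE is the size of the log2 fold change over the root of F. Floors cover counting error only. The script was tested on simulated counts. Exon lengths, GC content and positions came from GENCODE 29 on GRCh38, matched for 15775 of 15907 tested genes and 68 of 68 members. The trend was a smooth function of length and GC per library (mgcv 1.9.3, basis size 8), used as an offset. Alternatives were other scalings and filters, the DESeq2 1.42.0 Wald test, a replicate block, each library left out, and limma 3.58.1 on log2(FPKM + 1) and log2(FPKM + 0.1), with genes kept at 0.5 FPKM or unfiltered.

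Members and gene lists were chosen with earlier results of these data known. Genes named are BCLAF1, every member past the threshold, 10 set members (ITGB1, ITGB4, ITGAV, ITGA3, ITGA6, CDH1, CDH2, CDH5, CLDN1 and ITGAM), the 3 highest by control FPKM in each family, and up to 3 called genes per partner list by size of change. Other members, partners and marker genes were named outside that rule, after their values were seen. Not every gene the rule names in the partner lists has its full values printed.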

Additional observations from a re-analysis of the deposited data

How the results depend on the processing

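Of the 13 members that fell, CDH11, CDH4, CDH17, CLDN2, ITGA1, ITGA5, ITGB2 and ITGB6 kept their call in every alternative that gave a value for them, and of the 6 that rose CDH19 did. Leaving out each library in turn gave 1383 to 3741 genes higher and 1549 to 4195 lower (2827 and 2870 with all libraries), 4 to 7 members higher and 9 to 15 lower, 0 to 1 integrins higher and 4 to 9 lower, 2 to 5 cadherins higher and 3 to 4 lower, and 2 claudins higher in each fit and 1 to 2 lower. Under library totals alone, where the median of all genes moved to -0.21, 1283 genes and 0 integrins were higher and 3662 genes lower. With log2(FPKM + 1), median -0.21, 25 members and 6 cadherins passed the filter, CDH4 and CDH16 not among them. There 952 genes, 3 members, 0 integrins and 1 cadherin were higher, and 4061 genes, 12 members and 2 cadherins lower. With log2(FPKM + 0.1), median -0.28, they were 909, 3, 0 and 1 higher, and 3869, 11 and 2 lower. Without the filter on FPKM, 573 genes, 1 member, 0 integrins, 1 cadherin and 0 claudins were higher and 4 integrins lower. The cause of these differences was not tested.

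Of the 23 tested members not past the threshold, 11 changed sign under at least 1 alternative: CDH6, CDH10, CLDN4, CLDN11, CLDN15, ITGA10 and ITGAE, and the 4 that follow. CDH1 was at -0.15 under totals alone, -0.021 to 0.18 with 1 library left out (the lowest without depleted replicate 2), -0.21 and -0.22 with log2(FPKM + 1) and log2(FPKM + 0.1), and -0.21 unfiltered, against 0.34 (adjusted p = 0.0282) with the trend removed and without depleted replicate 1. CLDN12 was at -0.13 under totals alone, -0.057 to 0.28 with 1 library left out (the lowest without depleted replicate 3), and at -0.15, -0.21 and -0.15 on FPKM. ITGB4 was at -0.21 under totals alone, -0.024 with no low-count filter, -0.012 to 0.057 with 1 library left out (below 0 without control replicate 2 or 3 or depleted replicate 1), and at -0.27, -0.28 and -0.27 on FPKM. ITGAV was at 0.083 with the length and GC trend removed and at 0.079 with the replicate block as well. The cause was not tested.

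Calls lost when 1 library was left out are given with the genes above. ITGB3 (0.0682) and CDH2 (0.0524) also missed the threshold by the DESeq2 Wald test. Calls were gained for ITGB1 under totals alone (-0.81, adjusted p = 0.0281), with no low-count filter (-0.66, 0.00144), by the Wald test (-0.63, 0.0118) and with log2(FPKM + 1) (-0.96, 0.0194), log2(FPKM + 0.1) (-0.97, 0.0223) and the trend removed without depleted replicate 1 (-0.64, 0.00263). They were also gained for ITGAV (-0.36, 0.011) and CDH24 (0.39, 0.0482) without depleted replicate 1, and for ITGA3 with log2(FPKM + 1) (-0.44, 0.0475). Of members not tested with all libraries, CDH9 and CDH26 were called higher with no low-count filter (0.0167 and 0.0472) and without depleted replicate 2 (0.0299 and 0.026), and CLDN16 lower on unfiltered FPKM (0.0472). Unfiltered log2(FPKM + 1) lost 8 calls (adjusted p by limma): CLDN1 (0.0614), CLDN3 (0.102), CDH5 (0.171), ITGA2 (0.0755), ITGA6 (0.0716), ITGAM (0.0825), ITGB3 (0.0505) and CDH2 (0.66). The CDH2 call was also lost on filtered log2(FPKM + 1) (0.576) and log2(FPKM + 0.1) (0.602), and by edgeR with no low-count filter (0.0777).

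The labels number replicates 1 to 3 in both groups. Deviations of same-numbered libraries correlated at 0.036, 0.047 and 0.119, so the numbers were not taken as pairs, although each library correlated best with its own number. With the replicate block 5 members rose and 14 fell, with ITGB1 gained (-0.67, adjusted p = 0.0227) and CDH2 lost (0.0516), and with the trend removed as well 6 rose and 13 fell. The trend removed without depleted replicate 1, an alternative added after seeing the data, gave 7 higher and 14 lower. The 26 members not tested had at most 20 counts per library, which limits what could be detected in them.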
